A study of Mus musculus with 16 samples.

Results

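The muscle atrophy ubiquitin ligases and the FoxO factors that control them were read from the counts of 16 mouse hearts. The members were the 7 genes with the symbols Fbxo32, Trim63, Trim55, Trim54, Foxo1, Foxo3 and Foxo4, of 55573 genes counted, and all 7 were among the 16857 genes with enough counts to be tested. The hearts came from male wild-type mice injected under the skin on postnatal day 1 with an adeno-associated virus of serotype 9. The virus carried either GFP (AAV9-cTNT-GFP, here AAV9-GFP) or the full-length mouse lncRNA Cardinal (AAV9-cTNT-CARDINAL, here AAV9-Cardinal), both under the cTNT promoter, which is active in cardiomyocytes. As adults the mice had transverse aortic constriction (TAC), which narrows the aorta and loads the left ventricle with pressure, or a sham operation without the ligation. The apex of each heart was taken 4 weeks later, and each of the 4 groups, sham or TAC with either virus, held 4 mice. Every mouse therefore carried a virus, and no group was free of AAV9. The mice of a group are named by the numbers in their labels, which are not consecutive in the TAC groups.

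Striated muscle breaks down its proteins largely through the ubiquitin-proteasome system, in which an E3 ligase brings a substrate and a ubiquitin-loaded E2 enzyme together. Fbxo32 encodes atrogin-1 (MAFbx), the substrate-binding F-box subunit of an SCF ligase. Trim63, Trim55 and Trim54 encode MuRF1, MuRF2 and MuRF3, RING finger ligases that sit at the sarcomere and on microtubules. The FoxO transcription factors encoded by Foxo1, Foxo3 and Foxo4 are phosphorylated by Akt downstream of insulin and IGF-1, bound by 14-3-3 proteins and kept out of the nucleus. When Akt signaling falls, FoxO factors enter the nucleus and activate Fbxo32 and Trim63. Genes such as these, induced in common in different models of muscle atrophy, are called atrogenes. RNA counts measure neither the location of FoxO factors nor their phosphorylation, nor the activity of a ligase.

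Totals per mouse lay between 16441997 counts (AAV9-Cardinal sham mouse 4) and 21904589 counts, and 3 counts correspond to between 0.126 and 0.195 CPM (counts in every 1000000 of a library total scaled by its TMM factor), a floor that covers counting error only. Cardinal itself, listed as Gm12295, was at 3.42 to 7.24 CPM in the 8 AAV9-GFP hearts and at 18.3 to 93.9 CPM in the 8 AAV9-Cardinal hearts, so all 16 libraries matched their virus. AAV9-Cardinal TAC mouse 1 stood apart at 93.9 CPM of Cardinal, against a highest value of 20.6 CPM in the other 3 mice of its group. The tissue was whole apex. All 8 cardiomyocyte markers were detected, and their summed level was 33830 to 47187 CPM. Skeletal muscle, in which the atrogenes were first described, was not seen: 6 of its 8 markers (Myh1, Myh2, Myh4, Actn3, Myog and Pvalb) were at 0 counts in all 16 mice, and Tnnt3 and Tnni2 reached at most 0.612 and 0.883 CPM. In bulk tissue, fewer cells of a type and less RNA per cell cannot be told apart.

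The members were well above that floor, with between 282 counts (the lowest Foxo1 value) and 3497 counts (the highest Trim54 value) in any one mouse. To compare levels between genes, CPM was divided by the length of each gene's merged exons. Trim54 was highest at 96.8 ± 6.41 CPM per kb (SD, n = 16 mice), above 98.4% of tested genes on this scale. Trim63 followed at 31.0 ± 4.01 CPM per kb and Trim55 at 28.1 ± 2.03 CPM per kb. Trim63 was above Trim55 in 11 of 16 mice, so the order of these neighbors was not settled. Fbxo32 was at 17.6 ± 2.57 CPM per kb, below Trim55 in 16 of 16 mice.

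The FoxO factors lay below the ligases in level per length. Foxo3 was at 11.0 ± 1.89 CPM per kb, below Fbxo32 within each of the 16 mice, although the ranges of both genes over all mice overlapped. Foxo4 was at 9.74 ± 0.803 CPM per kb, below Foxo3 in 13 of 16 mice, and these neighbors overlapped within their spread. Foxo1 was lowest at 2.27 ± 0.234 CPM per kb, near the middle of all tested genes (percentile 49.5). Of the summed level per length of the 3 MuRF genes in AAV9-GFP sham hearts, Trim54 made up 61.5% ± 4.07 (SD, n = 4). Of the summed level of the 3 FoxO factors in the same hearts, Foxo3 made up 48.5% ± 3.26 and Foxo4 42.3% ± 3.74. Merged exons overstate the length of a gene whose shorter transcripts dominate, so these levels depend on the annotation.

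Fbxo32 (ENSMUSG00000022358) lies at chr15:58175879-58214932 on the minus strand of GRCm38, and its level varied more between mice than that of most members, from 87.5 to 146 CPM. In AAV9-GFP sham mice 1 to 4 it was at 131, 146.2, 100.1 and 143.8 CPM. In AAV9-GFP TAC mice 1, 3, 4 and 7 it was at 125.8, 101.2, 111.4 and 97.8 CPM. The groups overlapped, since the lowest sham mouse fell among the TAC mice. The difference, TAC minus sham, was a log2 fold change of -0.26 (standard error 0.13) and did not pass the threshold (edgeR quasi-likelihood, adjusted p = 0.21, Benjamini-Hochberg). In AAV9-Cardinal sham mice 1 to 4 Fbxo32 was at 141.9, 123.8, 135.1 and 133.3 CPM, and in AAV9-Cardinal TAC mice 1, 4, 5 and 6 at 126.2, 135.2, 123.2 and 87.5 CPM. Mouse 6 was lowest of all 16, and the other TAC mice lay within or close to the sham range. The TAC difference in these hearts was -0.18 (standard error 0.13, adjusted p = 0.48 in edgeR).

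Trim63 (MuRF1, ENSMUSG00000028834, chr4:134315120-134329629, plus strand) is the ligase known for ubiquitinating thick filament proteins. It was at 96.9, 101.3, 73.9 and 88.4 CPM in AAV9-GFP sham mice 1 to 4 and at 94.1, 77.2, 109.1 and 74.0 CPM in AAV9-GFP TAC mice 1, 3, 4 and 7. The 2 groups covered nearly the same range. With AAV9-Cardinal it was at 90.2, 86.5, 85.8 and 104.6 CPM in sham mice 1 to 4 and at 80.9, 93.5, 85.2 and 70.1 CPM in TAC mice 1, 4, 5 and 6. These groups overlapped as well, and the TAC difference was -0.02 (95% interval -0.30 to 0.25) with AAV9-GFP and -0.15 (95% interval -0.43 to 0.12) with AAV9-Cardinal.

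The RefSeq sequence of the 250 bases before the start of Trim63 is shown with the only match to the FoxO binding element GTAAACA found in the upstream windows of the members. The element lies on the strand opposite to the gene, 194 to 188 bases before the start (capitals), and reads TGTTTAC on the gene's strand. The window of Trim54, a MuRF gene of the same family, is shown for comparison and held no such match. Both are from GRCm38.p6, at chr4:134314870-134315119 and chr5:31116362-31116611, both on the plus strand. The starts are those of RefSeq. For Trim63 the start matches the gene coordinates given in the text, but for Trim54 and Foxo3 it lies elsewhere.
Trim63: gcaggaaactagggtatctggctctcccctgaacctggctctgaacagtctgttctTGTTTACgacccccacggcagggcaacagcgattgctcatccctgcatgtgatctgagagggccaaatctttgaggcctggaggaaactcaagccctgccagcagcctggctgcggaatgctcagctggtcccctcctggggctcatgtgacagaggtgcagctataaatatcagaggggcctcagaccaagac
Trim54: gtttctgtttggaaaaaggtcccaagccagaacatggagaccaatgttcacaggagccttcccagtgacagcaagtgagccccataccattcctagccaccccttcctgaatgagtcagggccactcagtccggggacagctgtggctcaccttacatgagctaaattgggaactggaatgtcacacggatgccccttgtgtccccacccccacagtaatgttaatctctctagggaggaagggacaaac

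Upstream windows were found for 4 of the 7 members (Trim63, Trim54, Foxo1 and Foxo3). On both strands, GTAAACA was found in 3.17% of 32536 such windows, and of the 4 members only in that of Trim63. The glucocorticoid receptor half-site AGAACA, found in 16% of windows, was present once for Trim63, directly before the FoxO element and without overlap (200 to 195 bases before the start), and once for Trim54. The TEAD motif CATTCC, found in 12.6% of windows, was present for Trim63, Trim54 and Foxo3, and the E-box CANNTG, found in 66.2%, for Trim63, Trim54 and Foxo1. A MEF2 consensus, found in 2.89% of windows, was present in none of the 4. These are matches of letters, and binding was not measured.

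Trim55 (MuRF2, ENSMUSG00000060913, chr3:19644474-19692421, plus strand) binds titin and microtubules. It was at 76.9, 68.2, 67.7 and 86.3 CPM in AAV9-GFP sham mice 1 to 4 and at 74.7, 74.4, 73.4 and 71.8 CPM in AAV9-GFP TAC mice 1, 3, 4 and 7, where the TAC mice lay inside the sham range. With AAV9-Cardinal it was at 75.1, 74.1, 68.8 and 66.8 CPM in sham mice 1 to 4 and at 79.6, 79.0, 77.9 and 81.5 CPM in TAC mice 1, 4, 5 and 6. All 4 AAV9-Cardinal TAC mice were above all AAV9-Cardinal sham mice and above all AAV9-GFP TAC mice, but not above all AAV9-GFP sham mice. The TAC difference with AAV9-Cardinal was 0.16 (95% interval 0.02 to 0.30), a rise of 11.7%, and it did not pass the threshold over all genes (edgeR adjusted p = 0.17, exact two-sided permutation p = 0.029, the smallest that 4 mice against 4 can give). Against AAV9-GFP TAC hearts the difference was 0.11 (95% interval -0.03 to 0.25, edgeR adjusted p = 0.45). Groups without overlap were found for 13.7% of tested genes in the first of these comparisons and for 6.77% in the second.

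Trim54 (MuRF3, ENSMUSG00000062077, chr5:31116712-31137630, plus strand), which stabilizes microtubules, varied least. Over the 16 mice its highest value was 1.21 times its lowest, and the group means were between 137.7 and 139.6 CPM. Values ranged from 126.8 to 151.8 CPM in AAV9-GFP sham mice, 129.7 to 153 in AAV9-GFP TAC mice, 133 to 146.6 in AAV9-Cardinal sham mice and 126.7 to 152.8 in AAV9-Cardinal TAC mice. The ranges covered one another almost whole. The 95% interval of the TAC difference was -0.13 to 0.17 on the log2 scale with AAV9-GFP and -0.16 to 0.15 with AAV9-Cardinal. An antisense gene, Gm15469, covers 26.6% of the merged exons of Trim54, but it held at most 25 counts, no more than 0.874% of those of Trim54 in any mouse. For Fbxo32 the antisense gene Gm15943 covers 2.67% of the merged exons and held up to 9.42% of the counts of Fbxo32. Whether the counting used strand is not given in the sources used here.

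Foxo3 (ENSMUSG00000048756, chr10:42181841-42276755, minus strand), the FoxO factor best known for driving Fbxo32 in muscle, was the member that changed with TAC in AAV9-GFP hearts. In AAV9-GFP sham mice 1 to 4 it was at 105.7, 82.6, 81.4 and 90.9 CPM. In AAV9-GFP TAC mice 1, 3, 4 and 7 it was at 73.3, 56.0, 67.7 and 70.1 CPM. Every TAC mouse was below every sham mouse, with no overlap. The log2 fold change was -0.43 (standard error 0.13, 95% interval -0.70 to -0.16), a fall to 0.74 times the sham level (edgeR's quasi-likelihood test, adjusted p = 0.027; exact two-sided permutation p = 0.029).

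In AAV9-Cardinal hearts Foxo3 was at 84.0, 91.4, 94.3 and 89.3 CPM in sham mice 1 to 4 and at 82.8, 111.5, 78.9 and 68.9 CPM in TAC mice 1, 4, 5 and 6. The TAC mice were spread on both sides of the sham mice, and mouse 4 was the highest of all 16. The TAC difference was -0.07 (95% interval -0.34 to 0.20, edgeR adjusted p = 0.82). Between the viruses, Foxo3 in TAC hearts was higher with AAV9-Cardinal by 0.36 on the log2 scale (95% interval 0.09 to 0.63), which did not pass the threshold over all genes (adjusted p = 0.20 in edgeR, exact permutation p = 0.086). In fits without a mouse this difference lay between 0.20, without AAV9-Cardinal TAC mouse 4, and 0.45. Under the other alternatives it lay between 0.27 and 0.51, and it passed the threshold in none of these fits. The test of the difference in TAC response itself gave 0.36 (95% interval -0.02 to 0.75, edgeR adjusted p = 0.51). In fits without a mouse it lay between 0.21, without AAV9-Cardinal TAC mouse 4, and 0.45. Under the other alternatives it lay between 0.24 and 0.51. None of these fits passed the threshold, so a difference between the viruses in the response of Foxo3 was not shown.

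The fall of Foxo3 in AAV9-GFP hearts lay between -0.48 and -0.35 in all 16 fits without a mouse and passed the threshold in 13 of them. It was no longer past the threshold without AAV9-GFP sham mouse 1 (log2 fold change -0.35, adjusted p = 0.091 in edgeR), without AAV9-GFP sham mouse 4 (-0.43, adjusted p = 0.053) or without AAV9-GFP TAC mouse 3 (-0.36, adjusted p = 0.096), nor with library totals alone in place of TMM normalization (-0.28, adjusted p = 0.11). Cell type markers moved in the same hearts. Of the 8 cardiomyocyte markers 6 were lower with TAC, and the summed level of the 8 was 33830 to 39148 CPM against 45136 to 45904 CPM in sham hearts. Myh6 was the largest part of this sum, at 15329 ± 1845 CPM with TAC against 19200 ± 476 CPM. Actn2 went the other way, at 1479 ± 93.8 against 1287 ± 68.3 CPM, and was not called. Of the 8 fibroblast markers 5 were higher, and their summed level was 904 to 1169 CPM against 519 to 588 CPM. With AAV9-Cardinal, 1 of 8 fibroblast markers was higher (4 at an unadjusted p under 0.05), with sums of 530 to 990 CPM against 505 to 564 CPM. Of the cardiomyocyte markers 1 was higher and 1 lower (4 at an unadjusted p under 0.05), with sums of 39369 to 43996 CPM against 43323 to 47187 CPM. Between the viruses in TAC hearts 0 of these markers were called, with 6 of 8 fibroblast and 6 of 8 cardiomyocyte markers at an unadjusted p under 0.05 (list medians -0.52 and 0.23). Of the other markers in AAV9-GFP hearts, 2 of 6 endothelial, 1 of 6 macrophage, 2 of 6 smooth muscle and pericyte, and 1 of 2 tested atrial markers were higher and 0 of 5 red cell markers changed (0 at an unadjusted p under 0.05). The atrial marker that was higher was Nppa, which ventricular cardiomyocytes also express under load, at 734 ± 456 CPM with TAC against 61.3 ± 25.6 CPM (SD, n = 4). It made up nearly all of the atrial sum, while the other, Myl4, was at 1.25 ± 0.358 against 0.895 ± 0.141 CPM and was not called. The 5 adipocyte markers were too low to be tested, at sums of at most 1.81 CPM in any group. With AAV9-Cardinal, Nppa was the atrial marker that was higher, and 0 of the 6 endothelial (4 at an unadjusted p under 0.05), 6 macrophage (0), 6 smooth muscle and pericyte (1) and 5 red cell markers (0) were called by edgeR. The part of these shifts in the Foxo3 difference was not tested.

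Foxo4 (ENSMUSG00000042903, chrX:101254528-101260873, plus strand) was at 39.5, 36.7, 38.0 and 30.3 CPM in AAV9-GFP sham mice 1 to 4 and at 31.1, 32.5, 30.7 and 33.5 CPM in AAV9-GFP TAC mice 1, 3, 4 and 7. Sham mouse 4 was below all TAC mice, while the other 3 sham mice were above them. The TAC difference was -0.18 (95% interval -0.33 to -0.03) and did not pass the threshold (adjusted p = 0.10 in edgeR). Without AAV9-GFP sham mouse 4 it did, at -0.25 (adjusted p = 0.0069 in edgeR). With AAV9-Cardinal the sham mice were at 32.4 to 36.7 CPM and the TAC mice at 31.4 to 34.0 CPM, and the TAC difference was -0.11 (95% interval -0.26 to 0.05).

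Foxo1 (ENSMUSG00000044167, chr3:52268336-52353221, plus strand), the FoxO factor most closely tied to the vascular endothelium and to insulin action, showed no difference past the threshold. It was at 17.8 to 21.1 CPM in AAV9-GFP sham mice, 17.6 to 20.8 CPM in AAV9-GFP TAC mice, 17.6 to 20.5 CPM in AAV9-Cardinal sham mice and 16.4 to 25.0 CPM in AAV9-Cardinal TAC mice. All 4 ranges overlapped. The TAC difference was -0.01 (95% interval -0.23 to 0.22) with AAV9-GFP and 0.10 (95% interval -0.12 to 0.33) with AAV9-Cardinal.

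**Figure D1:**
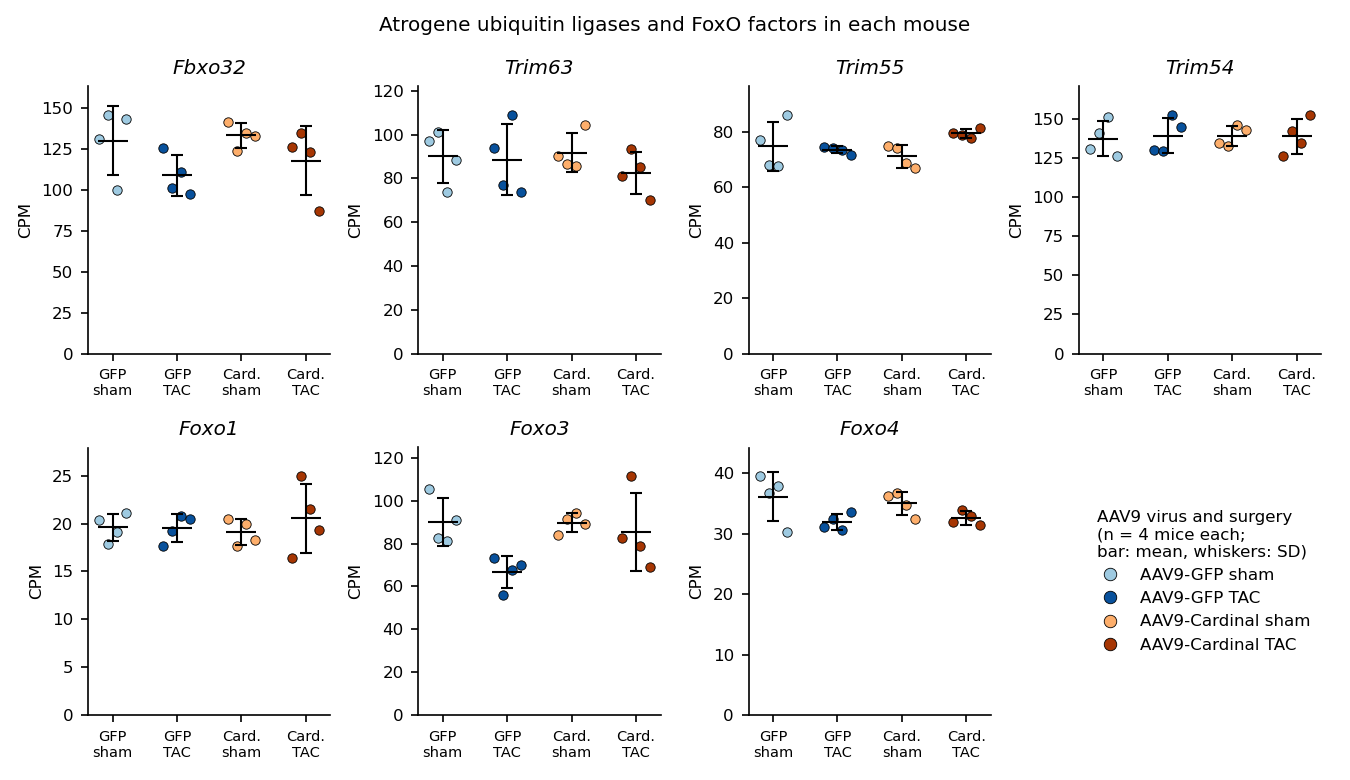
CPM of the 7 members (y axis, from 0) in each mouse (points) of the 4 groups (x axis), with the mean (horizontal bar) and SD (whiskers) of 4 mice. For Foxo3 all 4 AAV9-GFP TAC mice, at 56.0 to 73.3 CPM, are below all AAV9-GFP sham mice, and Trim54 is nearly level across the groups.

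Counted over the members, 1 of 7 (Foxo3, lower) changed with TAC in AAV9-GFP hearts, in a comparison where 17.4% of all tested genes changed and 8.92% were lower. With only 7 members, this count cannot show whether they changed more or less often than other genes. The median log2 fold change was -0.03 over the 7 members and 0.00 over all tested genes, and 6 of 7 values were below 0. At an unadjusted p under 0.05 the count was 2 of 7 (Foxo3 and Foxo4), against 29.9% of tested genes. The TAC and sham mice did not overlap for 1 of the 7, against 20.3% of tested genes.

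In AAV9-Cardinal hearts 0 of 7 members changed with TAC, where 6.48% of tested genes changed. DESeq2 also called 0, and 1 of 7 (Trim55) had an unadjusted p under 0.05 in edgeR, against 21.8% of tested genes. Between the viruses in TAC hearts 0 of 7 members differed, where 0.101% of tested genes did, with 0 by DESeq2 and 1 (Foxo3) at an unadjusted p under 0.05, against 15% of tested genes. In sham hearts 0 of 7 differed, where 0.0119% of tested genes did, with 0 by DESeq2 and 0 at an unadjusted p under 0.05, against 2.59% of tested genes. For the difference in TAC response between the viruses the count was 0 of 7, where 0.0119% of tested genes were called, with 0 by DESeq2 and 0 at an unadjusted p under 0.05, against 10.2% of tested genes. DESeq2 gave an adjusted p to 11514 genes between the viruses in TAC hearts and to 3281 for the difference in TAC response. A gene without an adjusted p was counted as not called, so a 0 by DESeq2 can include members not tested. In the 2 TAC comparisons the 95% intervals of the 7 members lay between -0.70 and 0.33 on the log2 scale, so a change by a factor of 2 with TAC lay outside the interval of every member. The comparisons share groups and are not independent of each other.

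**Figure D2:**
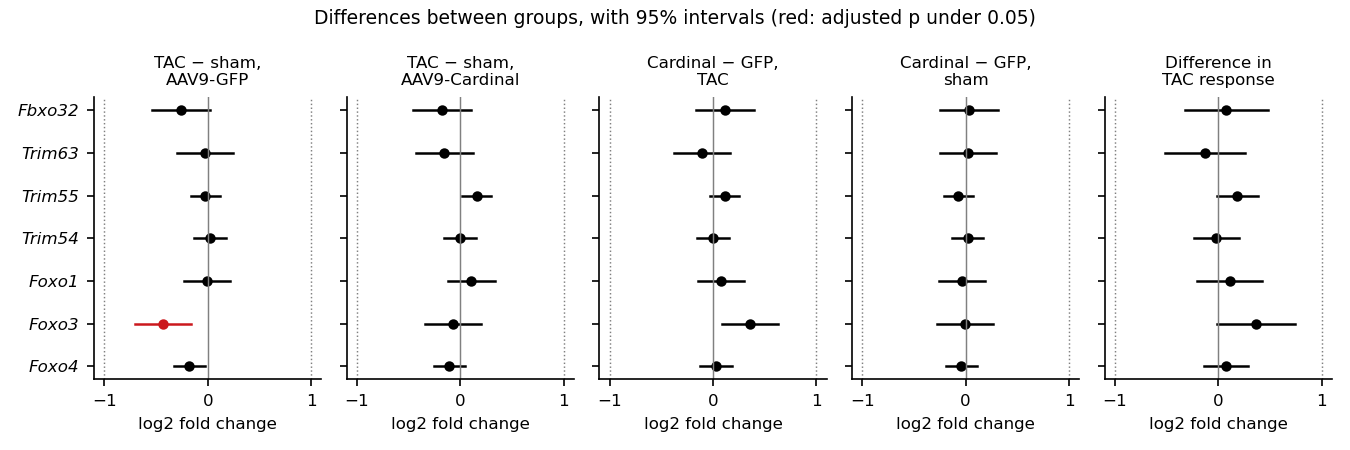
Log2 fold change (x axis, points) with its 95% interval (lines) for each member (y axis) in the 4 comparisons of groups and for the difference in TAC response (AAV9-Cardinal minus AAV9-GFP). The dotted lines at -1 and 1 mark a change by a factor of 2, which no interval reaches, and the interval in red, of Foxo3 in AAV9-GFP hearts, is the only one with an adjusted p under 0.05.

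Within a group, mice with more Fbxo32 also tended to have more Trim63. Over the 16 mice, the deviations of log2 CPM from the group mean had a Pearson r of 0.73 and a Spearman rho of 0.66 between Fbxo32 and Trim63, the highest r among the 21 pairs of members. Without the 2 mice farthest from the median of Fbxo32, AAV9-Cardinal TAC mouse 6 and AAV9-GFP sham mouse 3, r was 0.58. Both of these mice were low for both genes, with deviations of -0.41 and -0.36 for Fbxo32 and of -0.23 and -0.28 for Trim63. For Fbxo32 and Foxo3, r was 0.55, rho 0.38, and r without the same mice 0.31. For Trim63 and Foxo3, r was 0.49 and rho 0.42. With Fbxo32, r was 0.21 for Trim55 and -0.53 for Trim54, and without the 2 farthest mice 0.08 and -0.13. With Trim63, r was -0.03 for Trim55 and -0.07 for Trim54. Between Trim55 and Trim54 r was -0.57, and -0.37 without the 2 mice farthest from the median of Trim55. The values of a mouse come from 1 library and share its depth and its normalization factor, and no test was made of these pairs.

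**Figure D3:**
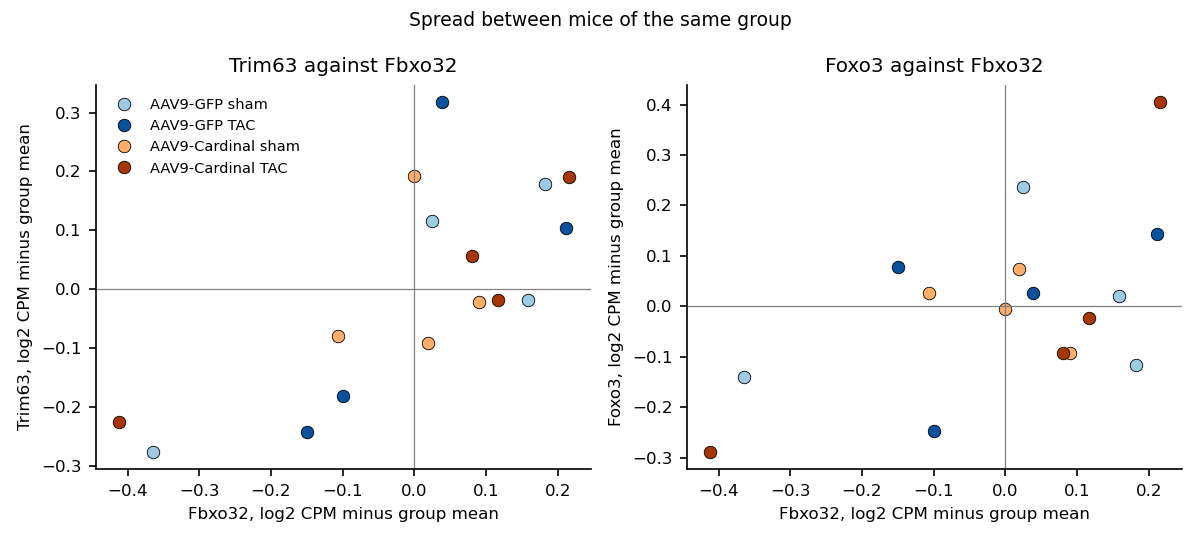
Deviation of log2 CPM from the group mean for Trim63 (left, y axis) and Foxo3 (right, y axis) against that of Fbxo32 (x axis), 1 point for each of 16 mice, colored by group. For Trim63 the points rise together (r = 0.73), with AAV9-Cardinal TAC mouse 6 and AAV9-GFP sham mouse 3 at the lower left, and for Foxo3 the spread is wider (r = 0.55).

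The other genes of the pathway were read from 11 lists with 211 symbols, of which 209 were tested. With TAC in AAV9-GFP hearts, 46 of them changed, 20 higher and 26 lower (22% against 17.4% of all tested genes, of which 8.49% were higher and 8.92% lower), with a median of -0.00 against 0.00 over all tested genes. In AAV9-Cardinal hearts 19 changed, 11 higher and 8 lower (9.09% against 6.48%, of which 3.1% were higher and 3.38% lower). Between the viruses, 0 of 209 differed in TAC hearts, in sham hearts or in the TAC response in edgeR, with 38, 4 and 28 at an unadjusted p under 0.05. DESeq2 called 12 in TAC hearts, 0 in sham hearts and 3 in the TAC response (Ube2b, Pink1 and Des, with edgeR adjusted p of 0.30, 0.30 and 0.33), so whether these 3 genes responded differently with the viruses depended on the tool. Pathway genes to which DESeq2 gave no adjusted p were counted as not called. The counts also depended on the mice: without AAV9-Cardinal TAC mouse 1, edgeR called 10 in TAC hearts and 1 in the TAC response.

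Among 22 other muscle ubiquitin ligases, 2 rose and 4 fell with TAC in AAV9-GFP hearts (27.3% called, against 17.4% of all tested genes). Trim72 (MG53, a membrane repair protein and ligase) rose from 177 ± 13.6 to 270 ± 17.4 CPM (SD, n = 4), a log2 fold change of 0.61 (standard error 0.07). Klhl40, a partner of a CUL3 ligase that stabilizes thin filament proteins, rose by 0.65 (standard error 0.18). Rnf207, a cardiac RING finger protein, fell by 0.55 (standard error 0.16), and Nedd4l, a ligase of ion channels, fell by 0.49 (standard error 0.11). With AAV9-Cardinal, Trim72 rose by 0.34 (standard error 0.07), and Rnf207 and Nedd4l fell by 0.63 and 0.45. Trim72 and Nedd4l passed the threshold in AAV9-GFP hearts with each mouse left out in turn, but Klhl40 did so in 13 and Rnf207 in 10 of 16 such fits. In AAV9-Cardinal hearts Trim72 did so in 16, Rnf207 in 10 and Nedd4l in 9, and the number of the 22 called lay between 1 and 7.

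Of 18 genes of the SCF core, the E1 and E2 enzymes and ubiquitin, 0 rose and 4 fell in AAV9-GFP hearts (22.2% called, against 17.4% of all tested genes). Ube2b, an E2 enzyme known from muscle atrophy, went from 220 ± 12.9 to 180 ± 8.95 CPM, and Skp1a, which links F-box proteins such as atrogin-1 to the SCF core, from 96.3 ± 5.62 to 83.2 ± 0.763 CPM. The E2 enzyme Ube2d1 and the SCF subunit Rbx1 fell by 0.25 and 0.18, and Rbx1 passed the threshold in only 8 of 16 fits without a mouse. Among the 33 genes of the 26S proteasome 4 rose and 0 fell. The share called, 12.1%, was below the 17.4% of all tested genes, of which 8.49% were higher. The log2 fold changes were 0.25 for Psmd8, 0.20 for Psmd14, 0.19 for Psmd11 and 0.17 for Psma5. Without single mice the number of the 33 called lay between 1 and 5, and under the other alternatives between 1 and 20. Psmd8 was called in 16, Psmd14 in 11, Psmd11 in 9 and Psma5 in 6 of the 16 fits without a mouse. With AAV9-Cardinal, edgeR called 0 of 33 proteasome genes (6 at an unadjusted p under 0.05, 2 by DESeq2). Their median was 0.069 with AAV9-Cardinal and 0.017 with AAV9-GFP. Psmd11 went from 60.3 ± 3.84 to 67.8 ± 5.38 CPM with AAV9-Cardinal and Psmd14 from 25.5 ± 0.748 to 29.3 ± 1.91 CPM. Psma5 went from 19.1 ± 0.477 to 20.2 ± 1.05 CPM and Psmd8 from 50.4 ± 2.9 to 50.6 ± 4.1 CPM. Of the 18 genes, 1 rose with AAV9-Cardinal, the E2 enzyme Ube2g1, by 0.275 (called in 10 of 16 fits without a mouse).

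Of 7 genes of the immunoproteasome and the proteasome activators, the subunit Psmb10 rose by 0.45 and the activator subunit Psme1 fell by 0.31 in AAV9-GFP hearts (28.6% called, against 17.4% of all tested genes). With AAV9-Cardinal edgeR called 0 of these 7 (1 at an unadjusted p under 0.05, 0 by DESeq2). Of 13 deubiquitinating enzymes (15.4% called in AAV9-GFP hearts), Uchl1 rose from 5.89 ± 0.632 to 9.21 ± 1.23 CPM and Usp2 fell by 0.28 (standard error 0.08) in AAV9-GFP hearts. Uchl1 also rose with AAV9-Cardinal, by 0.66 (standard error 0.11). Of 26 autophagy and lysosome genes 2 rose and 4 fell in AAV9-GFP hearts (23.1% called). Pink1, a kinase that marks damaged mitochondria, fell from 413 ± 14.1 to 252 ± 16.8 CPM, and the ATG8 family genes Map1lc3a and Gabarapl2 fell by 0.25 and 0.21, while Wipi1, which takes part in autophagosome formation, rose by 0.26. With AAV9-Cardinal, Pink1 fell from 389 ± 9.51 to 298 ± 28.3 CPM and was the only one of the 26 called. Usp2 and Map1lc3a passed the threshold in 11 of 16 fits without a mouse in AAV9-GFP hearts, and Uchl1 and Pink1 in 16 of 16 with either virus.

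Of 23 other FoxO target genes, 0 rose and 3 fell with TAC in AAV9-GFP hearts (9 at an unadjusted p under 0.05, 3 by DESeq2), and their median was -0.21 against 0.00 over all tested genes. Klf15, a metabolic regulator that is also induced by glucocorticoids, fell by 0.71 (standard error 0.15), the lipoprotein lipase gene Lpl by 0.40 (standard error 0.09) and Sod2, the mitochondrial superoxide dismutase, by 0.25 (standard error 0.05). The share called, 13%, was below the 17.4% of all tested genes. Some targets had higher means with TAC in AAV9-GFP hearts but spread widely between mice and were not called. Pdk4 was at 342 ± 242 against 150 ± 10.7 CPM, Txnip at 287 ± 141 against 238 ± 51.9 CPM and Angptl4 at 3.73 ± 3.73 against 1.68 ± 0.101 CPM. Pdk4 also had a higher mean with AAV9-Cardinal, at 679 ± 471 against 203 ± 100 CPM. With AAV9-Cardinal only Gadd45a, a growth arrest gene, was called, from 10.3 ± 0.848 to 5.01 ± 2.23 CPM, and it passed the threshold in only 3 of 16 fits with a mouse left out. Gadd45a was also lower in mean with TAC in AAV9-GFP hearts, at 5.43 ± 2.46 against 8.5 ± 1.41 CPM, but was not called there. Most of these targets answer to other factors as well.

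Among 31 genes upstream of FoxO, 4 rose and 3 fell in AAV9-GFP hearts (22.6% called, against 17.4% of all tested genes). The kinase gene Akt2 fell from 88.7 ± 2.9 to 67.3 ± 1.83 CPM, and Pik3r1, the regulatory subunit of PI3 kinase, from 162 ± 16.5 to 107 ± 20.2 CPM. The growth factor gene Igf1 rose from 10.2 ± 1.34 to 15.1 ± 1.27 CPM and its receptor Igf1r from 20.2 ± 1.88 to 29.9 ± 7.83 CPM. Both also had higher means with TAC in AAV9-Cardinal hearts, where neither was called. There Igf1 went from 8.63 ± 1.33 to 12.9 ± 3.72 CPM and Igf1r from 20.3 ± 1.84 to 28.1 ± 3.41 CPM. With AAV9-Cardinal, Akt2 fell by 0.285 and Pik3r2 by 0.46, and Pik3ca, a catalytic subunit of PI3 kinase, rose by 0.23. Of these Akt2 was called in 16, Pik3r2 in 12 and Pik3ca in 8 of 16 fits without a mouse, and in AAV9-GFP hearts Akt2 and Pik3r1 were called in 16, Igf1r in 14 and Igf1 in 13. In AAV9-Cardinal hearts Pik3r1 was at 162 ± 10.2 CPM in sham mice and 154 ± 35.9 CPM in TAC mice. Pik3r1 was also the gene whose log2 CPM followed that of Foxo3 most closely over the 16 mice among 7552 genes whose mean reached 10 CPM (r = 0.92, rho = 0.87), ahead of Frs2 (r = 0.90) and Alkbh5 (r = 0.89). Within the groups, on deviations from the group means, r between Foxo3 and Pik3r1 was 0.825.

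The genes most like the other members by the same measure were Tmpo, Enpp4 and Fchsd2 for Fbxo32 (r = 0.81, 0.80 and 0.79), Ung, Ubald2 and Snapc5 for Trim63 (r = 0.80, 0.80 and 0.77), and Arhgef6, Chd6 and Garem1 for Trim55 (r = 0.88, 0.86 and 0.83). They were Mpc1-ps, Rfx1 and Hspa12b for Trim54 (r = 0.84, 0.78 and 0.77), Dnajc7, Slc43a3 and Map4k2 for Foxo1 (r = 0.85, 0.84 and 0.82), and Dpy19l4, Nup85 and Arih2 for Foxo4 (r = 0.84, 0.79 and 0.79). No gene was shared between these sets of 3. The highest r of 7552 genes over 16 mice is high by selection, and these values describe the libraries only.

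Of 9 tested forkhead factors outside the members, 22.2% were called in AAV9-GFP hearts, against 17.4% of all tested genes. Foxo6, the FoxO factor best known from brain, fell from 1.74 ± 0.195 to 0.731 ± 0.564 CPM in AAV9-GFP hearts and from 2.14 ± 0.351 to 0.729 ± 0.315 CPM in AAV9-Cardinal hearts. Its level was therefore far below that of the members in CPM. Foxs1, a forkhead gene of pericytes, rose from 0.577 ± 0.408 to 1.73 ± 0.586 CPM in AAV9-GFP hearts. At these low levels the calls held in 11 of 16 fits without a mouse for Foxs1, and for Foxo6 in 9 with AAV9-GFP and 10 with AAV9-Cardinal. Of the 10 glucocorticoid-responsive genes (20% called in AAV9-GFP hearts), the metallothionein Mt2 rose by 1.43 (standard error 0.27) and Klf9, a Krüppel-like factor, fell by 0.34 (standard error 0.08) in AAV9-GFP hearts. Mt2 and Mt1 rose by 1.05 and 0.75 with AAV9-Cardinal, where Mt2 was called in 9 and Mt1 in 10 of 16 fits without a mouse and the count over the list lay between 0 and 3.

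Of the 18 genes for substrates and partners of the ligases, 4 rose and 4 fell with TAC in AAV9-GFP hearts (44.4% called, against 17.4% of all tested genes). Troponin I (Tnni3), a substrate of MuRF1, fell from 2629 ± 124 to 1821 ± 106 CPM, and Ppara, a nuclear receptor of fatty acid use, fell by 0.57 (standard error 0.13). Jun rose by 0.73 (standard error 0.16) and the intermediate filament gene Vim by 0.67 (standard error 0.10). With AAV9-Cardinal, Jun and Vim rose by 0.60 and 0.45, although Jun passed the threshold in only 6 of 16 fits without a mouse. Des and Mybpc3 rose with either virus, Des by 0.52 with AAV9-GFP and 0.275 with AAV9-Cardinal, and Mybpc3 by 0.21 and 0.30. Tnni3, Myh6 and Myl2 are in this list and also among the cardiomyocyte markers, so the counts of these lists are not independent. Myh6 and Myl2 were also lower in mean with TAC in AAV9-GFP hearts. Myh6 was at 15329 ± 1845 against 19200 ± 476 CPM and Myl2 at 3916 ± 379 against 4719 ± 186 CPM. Vim is expressed by fibroblasts, of whose 8 markers 5 rose in the AAV9-GFP hearts. Levels of RNA do not give the amount of a protein or its ubiquitination.

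**Figure D4:**
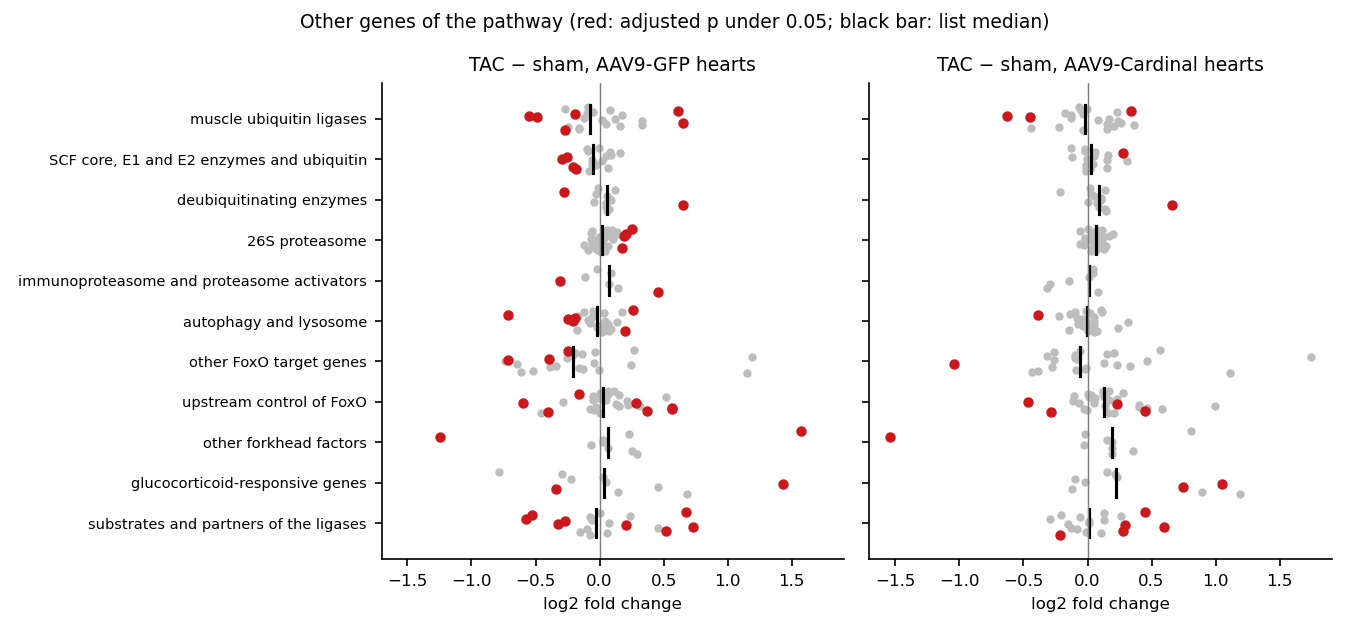
Log2 fold change, TAC minus sham (x axis), of every tested gene of the 11 pathway lists (y axis) in AAV9-GFP hearts (left) and AAV9-Cardinal hearts (right), with genes past the threshold in red and the list median as a black bar. On the left, calls lie on both sides of 0 in 8 of the 11 lists, on the right in 3, and 46 genes are red on the left and 19 on the right, where a gene in 2 lists is drawn in both.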

How the data were processed

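Poly(A)-selected RNA from the apex of 16 mouse hearts was sequenced with single-end 50-base reads. The authors deposited 1 table of unnormalized read counts, genes by mice, under Ensembl identifiers. The submitters' processing notes name GRCm38, FastQC, HISAT2 2.1.0 and edgeR 3.26.1, without their roles. The counting program, the annotation, the use of strand and the treatment of reads with several matches are not given in the sources used here. Such choices could move counts between members and genes that overlap them.

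Genes were named with GENCODE M21 on GRCm38 (55480 of 55573 identifiers matched). The counts were analysed with edgeR 4.0.16 in R 4.3.3: normalization by TMM, filterByExpr over the 4 groups, a quasi-likelihood fit of all 16 mice, and the 5 comparisons as contrasts. Changed means a Benjamini-Hochberg adjusted p under 0.05 over all 16857 tested genes. Log2 CPM used a prior count of 2. For single members an exact permutation test, two-sided, ran through all 70 ways to divide 8 mice (smallest p 0.029). The steps were tested on simulated data. Alternatives included DESeq2 1.42.0, other scalings and filters, a block for mouse number, and fits without 1 mouse. An offset for GC content was chosen after seeing the data. Pairs of libraries within a group all differed by more than sampling noise. The labels do not say whether mice shared a litter, and no batch is given.

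The members and lists were chosen with earlier results of these data known. From each pathway list, up to 4 called genes with at least 1 CPM in the higher group were named by the size of their change. A gene that this rule names is not reported here. For each member, the 3 genes with the highest r were named. The 9 lists of cell type markers are given as counts and ranges. Promoter sequences are from RefSeq, GRCm38.p6.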

Additional observations from a re-analysis of the deposited data

Results flagged for a closer look

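In 36 groups of 4 mice (the 7 members, Cardinal and the library total, each in 4 groups), the highest or lowest mouse was set against the others by Dixon's ratio, and 2 values stood apart. Chance alone would give about 1.8. AAV9-Cardinal TAC mouse 1 had 93.9 CPM of Cardinal (Gm12295), while the other 3 mice of its group had 18.3 to 20.6 CPM. Without it, 0 of 7 members differed in any comparison other than TAC against sham in AAV9-GFP hearts, where Foxo3 remained past the threshold (log2 fold change -0.43, edgeR adjusted p = 0.033). Over all genes, leaving it out moved the edgeR calls between the viruses from 17 to 535 in TAC hearts and from 2 to 79 for the difference in TAC response, and those among the 209 pathway genes from 0 to 10 and from 0 to 1. The library of AAV9-Cardinal sham mouse 4 had 16441997 counts, while the others of its group had between 21603910 and 21786630. Without it, the fall of Foxo3 in AAV9-GFP hearts was -0.43 (edgeR adjusted p = 0.035). No value of a member stood apart by this ratio.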

How the results depend on the processing

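Besides leaving out each of the 16 mice, 10 alternatives were fitted (9 for the difference in TAC response). For 4 comparisons 0 of 7 members were called in all of these fits, where a member without an adjusted p in DESeq2 counted as not called. For TAC in AAV9-GFP hearts the count lay between 0 and 1 without single mice and between 1 and 2 under the other alternatives. It was 2 with the GC offset (Foxo3 and Foxo4, Foxo4 at -0.215 with an adjusted p of 0.049), and with library totals alone the 1 member called was Trim54 (0.18, adjusted p = 0.044 in edgeR) and not Foxo3. Over the alternatives the log2 fold change of Foxo3 lay between -0.49 and -0.28, with adjusted p between 0.0086 (DESeq2) and 0.11, and it was called in 9 of 10 of them and in 13 of 16 fits without a mouse. Library totals alone moved the median of all genes to 0.16 for TAC in AAV9-GFP hearts and to -0.125 for the difference in TAC response, and the share of higher calls to 86.1% from 48.8% with AAV9-GFP, to 66% from 47.8% with AAV9-Cardinal and to 6.58% from 23.5% between the viruses in TAC hearts. Relative to that shift the values of Trim54 and Foxo3 are near those with TMM.

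Values near 0 changed sign. With library totals alone they were 0.132 for Trim63, 0.135 for Trim55 and 0.153 for Foxo1 (TAC, AAV9-GFP), 0.034 for Trim54 (TAC, AAV9-Cardinal), -0.021 for Foxo1 and -0.063 for Foxo4 (viruses, TAC hearts), 0.023 for Foxo3 (viruses, sham hearts), and -0.045 for Fbxo32, -0.018 for Foxo1 and -0.055 for Foxo4 (difference in TAC response). With the GC offset they were -0.050 for Trim54 and 0.003 for Foxo1 (TAC, AAV9-GFP), and for Trim54 0.030 (TAC, AAV9-Cardinal), 0.084 (viruses, TAC hearts) and 0.080 (difference in TAC response). Trim54 with AAV9-Cardinal was also at 0.003 with DESeq2, 0.000 with RLE size factors, 0.003 with no filter, 0.000 with a filter of 1 CPM in 4 mice and 0.001 with only the mice compared, and at 0.002 between the viruses in TAC hearts with no filter.

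The mouse numbers were read as names and were not taken to pair the samples. Over the 16 pairs with the same number, the correlations of deviations from the group means were between -0.0404 and 0.211. Of these, 4 were over 0.1, all between mice numbered 1, against 4 of 80 pairs with different numbers (medians 0.0545 and -0.013). These correlations cannot exclude something shared by mice of the same number. With the number as a block, Foxo3 was still called in AAV9-GFP hearts (-0.475, edgeR adjusted p = 0.043), and the calls over all genes went from 2934 to 2091 with AAV9-GFP and from 1092 to 31 with AAV9-Cardinal. In this blocked fit the sign changed for Trim63 (0.062) and Trim54 (-0.005) with TAC in AAV9-GFP hearts, for Foxo3 (0.038) with TAC in AAV9-Cardinal hearts and for Foxo3 (0.001) between the viruses in sham hearts. AAV9-Cardinal TAC mice 5 and 6 and AAV9-GFP TAC mouse 7 share their number with no other mouse. The block fits each of these mice exactly, so they carry no weight in its comparisons. The blocked fit therefore cannot show whether the numbers pair the mice. How much of these changes comes from that was not tested.

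Leaving out single mice gave ranges through 0 for TAC in AAV9-GFP hearts of -0.138 to 0.057 (Trim63), -0.069 to 0.052 (Trim55), -0.025 to 0.07 (Trim54) and -0.049 to 0.046 (Foxo1). For TAC in AAV9-Cardinal hearts they were -0.047 to 0.044 (Trim54), -0.001 to 0.202 (Foxo1) and -0.223 to 0.024 (Foxo3). Between the viruses in TAC hearts they were -0.18 to 0.015 (Trim63), -0.05 to 0.046 (Trim54) and -0.033 to 0.17 (Foxo1). In sham hearts they were -0.072 to 0.095 (Fbxo32), -0.058 to 0.086 (Trim63), -0.115 to 0.005 (Trim55), -0.02 to 0.068 (Trim54), -0.08 to 0.001 (Foxo1), -0.053 to 0.079 (Foxo3) and -0.118 to 0.004 (Foxo4). For Trim54 in the difference in TAC response the range was -0.072 to 0.026.

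The number of pathway genes called with TAC lay between 34 and 89 (AAV9-GFP) and between 0, with the block, and 29 (AAV9-Cardinal) under the alternatives, and between 30 and 48 and between 6 and 31 without single mice. Over all genes edgeR called 17 between the viruses in TAC hearts and 2 for the difference in TAC response. DESeq2 called 444 of 11514 genes with an adjusted p in the first of these and 146 of 3281 in the second. Without single mice the edgeR counts lay between 0 and 535 and between 2 and 79, both highest without AAV9-Cardinal TAC mouse 1. The cause was not tested. With 4 mice a group, differences smaller than the intervals could not be shown.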
